A study of Mus musculus with 7 samples.

Results

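A set of 42 genes that mark the absorptive cells, goblet cells and crypts of the intestine was followed across mouse embryonic fibroblasts (MEF), induced hepatocyte-like cells made from them (iHep) and adult hepatocytes. A gene was a member if its symbol, in the scanner file or as the current symbol of the probe's transcript accession, was one of 42 listed names. All 42 were found, among 27322 genes with a name on the array. They had 63 probes, and 18 members had several. Of the 42, 6 stood under an older name in the scanner files: Ezr, Sis, Zg16, Lypd8, Pls1 and Ffar4. By role, 7 members belong to the brush border cytoskeleton, 9 are brush border enzymes, 5 are carriers, 10 are other surface proteins, 4 are secreted peptides or a fat-sensing receptor, 4 are goblet cell products and 3 mark the crypt base.

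The absorptive cell of the small intestine carries a brush border, a dense field of microvilli held up by actin bundles and covered with enzymes that finish the digestion of sugars and peptides and with carriers that take up the products. Goblet cells between them secrete mucus, and stem cells at the base of the crypts renew both. The intestine and the liver both arise from endoderm, and hepatocytes bear microvilli and several of the same peptidases on the membrane that lines the bile canaliculus.

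All cells were of the C57BL/6 strain. The iHep group held 1 array for each of 3 types of induced hepatocyte-like cells derived from MEF, labelled iHep (4α1)-MEF, iHep (4α2)-MEF and iHep (4α3)-MEF and called type 1, type 2 and type 3 here. The study is known to have made such cells with Hnf4a together with a Foxa gene, but the sources used here do not say which factors each type carried, how they were delivered, or whether a type was 1 clone. The hepatocyte group was 1 array of cells from adult mouse liver, with no further age given. The MEF group had 3 arrays, and per the series' design text each sample was prepared on its own from embryos at 13.5 days post coitum.

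Levels are log2 signals relative to the 75th percentile of the same array, so a level of 0 is that percentile. They were compared between arrays, not between probes. The exception is the summed linear levels of lists of other cell types, which weigh each gene by the signal of its probe. The 75th percentile signal ran from 624 to 1583 across the 7 arrays, and between 60.2% and 68.7% of the probes cleared background. The MEF 2 and MEF 3 arrays differed by less than repeated spots of a probe on 1 array do, and were therefore averaged and counted as 1 sample, which leaves iHep n = 3, hepatocyte n = 1 and MEF n = 2. Groups were compared with limma over 19133 genes, with calls at an adjusted p under 0.05. MEF 1 and the iHep arrays shared a slide, MEF 2 and MEF 3 another, and the hepatocyte array had a slide and scan of its own, so for every hepatocyte comparison slide and group cannot be told apart. With 1 hepatocyte array, its spread was taken to equal that of the other groups. All p-values rest on the spread of these few samples, for iHep that between types, and the number of arrays limits the precision. An alternative fit with each type as its own group holds 1 array per type, and its spread is that of the MEF samples alone.

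The group labels were checked against marker lists. Of 10 hepatocyte markers on the array, 7 or 8 were well above background on each iHep array, 10 on the hepatocyte array and 1 on each MEF array. Cyp7a1 and Cyp2e1 were not detected on any iHep array. The 10 fibroblast markers were all detected on every iHep and MEF array, and 8 were lower in iHep. In bulk RNA of this kind, fewer cells of a type and less RNA per cell cannot be told apart. Macrophage markers went with the groups too: 3 or 4 of 10 were detected on the iHep arrays, 10 on the hepatocyte array and 9 on each MEF array. Their part in the results was not tested.

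Of the 42 members, 26, 32 and 29 were well above background in iHep types 1, 2 and 3, 37 in hepatocytes, and 19, 25 and 24 in MEF 1, 2 and 3. Against MEF, 12 members were called higher in iHep and 2 lower. Among all 19133 genes tested, 10% were called higher and 13.2% lower. The median change of the 40 members tested was 0.97 on the log2 scale, against -0.04 over all genes tested. The 12 were Vil1, Zg16, Muc13, Tspan8, Ffar4, Lgals4, Pls1, Myo7b, Gpa33, Ezr, Cdh17 and Sis, and the 2 were Anpep and Enpep. Within slide 1, which holds MEF 1 and the 3 iHep arrays, 9 were called higher (3.88% of all genes) and 2 lower (4.76%), and Cdh17, Gpa33 and Sis were the calls lost. Leaving out MEF 1 lost the same 3 calls. The 9 calls kept within slide 1 had changes there of 3.81 (Ezr) to 13.02 (Vil1) on the log2 scale. The members called higher were mainly microvillus scaffold and membrane proteins, and they included no carrier and 1 enzyme.

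A filter stands behind these counts. Only members whose probe cleared background throughout at least 1 group were tested. Of the 40 that passed, 15 did so in all 3 groups, 13 through hepatocytes alone, 7 through iHep and hepatocytes, 2 through hepatocytes and MEF, 2 through iHep alone and 1 through iHep and MEF. A member that passed through a single group is high there by construction, so the counts describe these genes and are no support for a difference. Without the filter, all 42 members were tested with 27583 genes and unnamed probes. In that fit 11 members were higher in iHep than in MEF (5.49% of all) and 2 lower (7.66%), with Sis the call lost. Groups of arrays that did not overlap were also counted among the 40. They numbered 17 members higher in iHep than in MEF (24.9% of all genes tested) and 5 lower (31.3%), 32 higher in hepatocytes than in MEF (50.1%) and 5 lower (41.9%), and 16 higher in iHep than in hepatocytes (37.3%) and 20 lower (48.7%).

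**Figure D1:**
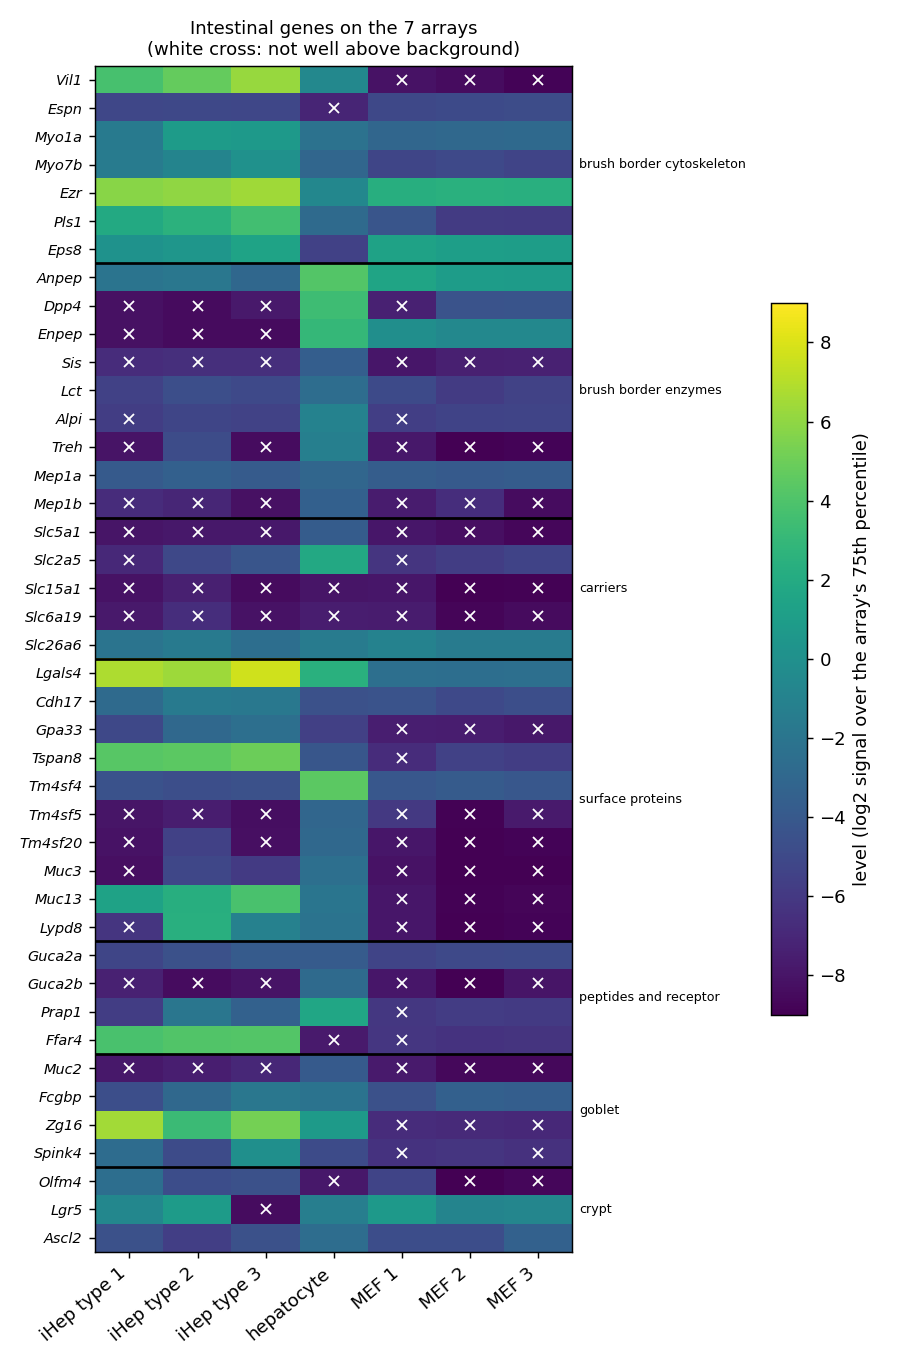
Colour gives the level (log2 signal over the array's 75th percentile) of each of the 42 members on the 3 iHep arrays, the hepatocyte array and the 3 MEF arrays, grouped by role. A white cross marks a probe not well above background, and colours compare arrays within a row, not rows. The hepatocyte column has 37 members without a cross, and the MEF columns have 19 to 25.

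Promoter windows from RefSeq (GRCm38.p6, 250 bases before to 50 after the annotated start) were at hand for 34 of the 42 members and were searched on both strands for short binding motifs of factors known from liver and gut. The HNF4 motif CAAAGTCCA stood in 0.475% of all 32851 windows, and 0.555% of 27025 genes had it. Among members it stood in windows of Muc13, which rose in iHep, and of the brush border enzymes Alpi and Treh, which were not called there. The FOXA motif TGTTTAC stood in 3.65% of windows, and among members in those of Tspan8, which rose in iHep, and Guca2a, which was not called. These 4 windows are printed 5′ to 3′ on the gene's strand, with the match in capitals, since they set members that rose beside members that were not called. A match read as TGGACTTTG lies on the opposite strand.
Muc13, chr16:33794239-33794538, plus strand: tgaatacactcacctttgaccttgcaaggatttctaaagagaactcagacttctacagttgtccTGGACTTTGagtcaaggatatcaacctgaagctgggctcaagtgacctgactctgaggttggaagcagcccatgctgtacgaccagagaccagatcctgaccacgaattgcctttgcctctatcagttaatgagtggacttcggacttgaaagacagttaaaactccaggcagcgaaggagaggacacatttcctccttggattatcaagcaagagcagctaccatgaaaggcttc
Alpi, chr1:87101557-87101856, minus strand: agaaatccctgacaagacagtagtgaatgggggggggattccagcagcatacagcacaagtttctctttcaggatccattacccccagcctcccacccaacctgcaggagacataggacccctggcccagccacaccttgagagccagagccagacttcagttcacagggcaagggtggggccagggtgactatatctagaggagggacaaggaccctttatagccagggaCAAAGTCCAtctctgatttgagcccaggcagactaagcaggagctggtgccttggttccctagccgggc
Treh, chr9:44672983-44673282, plus strand: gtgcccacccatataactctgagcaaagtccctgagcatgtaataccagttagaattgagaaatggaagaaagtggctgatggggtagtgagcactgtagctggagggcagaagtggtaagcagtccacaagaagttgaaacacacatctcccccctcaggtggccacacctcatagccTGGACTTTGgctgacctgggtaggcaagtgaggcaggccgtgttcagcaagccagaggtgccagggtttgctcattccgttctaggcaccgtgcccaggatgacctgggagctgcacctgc
Tspan8, chr10:115817034-115817333, plus strand: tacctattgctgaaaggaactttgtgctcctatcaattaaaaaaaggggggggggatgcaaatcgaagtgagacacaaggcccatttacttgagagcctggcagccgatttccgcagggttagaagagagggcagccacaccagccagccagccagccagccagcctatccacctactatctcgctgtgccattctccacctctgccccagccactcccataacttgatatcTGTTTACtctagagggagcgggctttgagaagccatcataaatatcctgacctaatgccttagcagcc
The Muc13 match began at base -186 from the start, in the later of its annotated windows, and no motif was found in the earlier. The Alpi, Treh and Tspan8 matches began at bases -19, -71 and -18. The CDX motif TTTATGG (2.75% of windows) stood in windows of Espn, Mep1a and Tm4sf4, and TTTATTG (4.6%) in that of Sis. The GATA motif AGATAAG (3.04%) stood in that of Guca2a. The HNF1 palindrome and the HNF4 direct repeat were in no member's window, and stood in 0.00913% and 0.0152% of all windows. A match is a run of letters and no evidence of binding.

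Of the 7 members of the brush border cytoskeleton, 4 were called higher in iHep than in MEF (10% of all genes tested) and none lower (13.2%). Vil1 encodes villin, which bundles the actin cores of microvilli. Its level was 3.75, 4.76 and 6.19 in iHep types 1, 2 and 3, -0.59 in hepatocytes, and -8.12, -8.44 and -8.86 in MEF, where it was not above background on any array. The iHep arrays lay far above every MEF array, and the hepatocyte array lay between. The rise in iHep against MEF was at least 2363-fold (13.28 ± 0.74 SE on the log2 scale as fitted, adjusted p = 0.001, limma), and the fitted change within slide 1 was 13.02. A second Vil1 probe, which overlaps the first and was not above background on any MEF array either, gave 13.21 as fitted. The probe lies on chromosome 1 at 74368595 to 74368654 of mm8, the build of the array's own annotation; no exon annotation of mm8 was used.

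Pls1, or plastin 1, is a second actin bundler of microvilli. Its level was 1.96, 2.56 and 3.58 in iHep types 1, 2 and 3, -2.78 in hepatocytes, and -4.24, -5.84 and -5.96 in MEF 1, 2 and 3. It was 218-fold higher in iHep than in MEF (7.77 ± 0.69, adjusted p = 0.00306). Ezr, or ezrin, ties actin to the cell membrane. Ezr levels were 5.81, 5.99 and 6.41 in iHep types 1, 2 and 3, -0.65 in hepatocytes, and 2.26, 2.39 and 2.37 in MEF. Here hepatocytes were the lowest group: iHep was 13.4-fold above MEF (3.75 ± 0.24, adjusted p = 0.00135), and hepatocytes were 7.86-fold below MEF (-2.98 ± 0.33, adjusted p = 0.00188). Myo7b, a myosin at the tips of microvilli, had levels of -1.5, -0.88 and 0.11 in iHep, -3.09 in hepatocytes, and -5.23, -5.02 and -5.32 in MEF. The difference between iHep and MEF was 21.8-fold (4.45 ± 0.50, adjusted p = 0.00546), and its second probe, not above background in hepatocytes or MEF, gave 7.55 on the log2 scale.

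The remaining 3 cytoskeletal members were not called between iHep and MEF. Myo1a, the myosin that links the actin core to the membrane, had levels of -1.57, 0.85 and 0.66 in iHep types 1, 2 and 3, -2.22 in hepatocytes, and -3.04, -2.95 and -2.85 in MEF. Its iHep and MEF arrays did not overlap, but the difference of 2.95 ± 0.79 missed the threshold (adjusted p = 0.0559). A second Myo1a probe gave 5.01, with only 1 of 3 MEF arrays above background. Eps8, which caps actin filaments, had levels of 0.18, 0.49 and 1.45 in iHep, -5.52 in hepatocytes, and 1.36, 1.09 and 1.04 in MEF. The hepatocyte level was 107-fold below MEF (-6.74 ± 0.57, adjusted p = 0.000909), whereas iHep and MEF overlapped. Espn, an actin bundler, had levels from -5.17 to -5.11 in iHep, -7.14 in hepatocytes, where it was not above background, and from -5.13 to -4.81 in MEF. Espn was at least 1.73-fold lower in hepatocytes than in MEF (-2.14 ± 0.24 as fitted, adjusted p = 0.00204).

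Of the 9 brush border enzymes, 1 was called higher in iHep than in MEF (10% of all genes tested) and 2 lower (13.2%). In hepatocytes 8 were higher than in MEF (29.3% of all genes), and 8 were lower in iHep than in hepatocytes (28.3%). However, 5 of the 9 passed the filter through hepatocytes alone and are high there by construction. The 2 enzymes called lower were aminopeptidases. Anpep, or aminopeptidase N, had levels of -2.07, -1.89 and -3.02 in iHep, 4.22 in hepatocytes, and 1.53, 0.94 and 0.89 in MEF. It fell 11.7-fold in iHep against MEF (-3.55 ± 0.43, adjusted p = 0.00654), and it was 7.95-fold higher in hepatocytes than in MEF (2.99 ± 0.57, adjusted p = 0.0103). The call in iHep was lost without MEF 1, where the change was -3.24 and Dpp4 was called lower instead. Enpep, or aminopeptidase A, which cleaves angiotensin, had levels of -8.21, -8.47 and -8.50 in iHep, none above background, 3.0 in hepatocytes, and -0.12, -0.61 and -0.60 in MEF. The fall in iHep was at least 54.9-fold against MEF (-8.03 ± 0.23 as fitted, adjusted p = 0.000378) and at least 563-fold against hepatocytes.

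Sis, or sucrase-isomaltase, was called higher in iHep (1.05 ± 0.23, adjusted p = 0.0324), but its probe was not above background on any iHep or MEF array, so no level or fold can be given there. Sis levels were -6.70, -6.58 and -6.55 in iHep, -3.63 in hepatocytes, and -7.92, -7.44 and -7.34 in MEF. The call was lost with normexp background correction, within slide 1, without the filter, with each type as its own group, without MEF 1, and without each iHep array in turn. In hepatocytes Sis was detected and at least 6.39-fold higher than in MEF (adjusted p = 0.000682). Dpp4, a dipeptidyl peptidase that inactivates incretins, had levels of -8.18, -8.45 and -7.76 in iHep, none above background, 3.44 in hepatocytes, and -7.37, -4.38 and -4.33 in MEF, of which the last 2 were above background. It was at least 368-fold higher in hepatocytes than in MEF (9.30 ± 1.22 as fitted, adjusted p = 0.00321). A Dpp4 probe at other positions on chromosome 2 was not detected in MEF at all.

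Lct, or lactase, was detected on all 7 arrays, with levels of -5.53, -4.64 and -5.02 in iHep, -2.60 in hepatocytes, and -4.99, -5.85 and -5.45 in MEF. The iHep and MEF arrays overlapped (0.26 ± 0.36, adjusted p = 0.645), and hepatocytes were 6.6-fold above MEF (adjusted p = 0.00813). Alpi, intestinal alkaline phosphatase, had levels of -5.75, -5.25 and -5.45 in iHep, -1.03 in hepatocytes, and -5.68, -5.37 and -5.33 in MEF, with 2 of 3 arrays above background in each of iHep and MEF. Its second probe was detected in iHep type 2 and hepatocytes only. Treh, which splits trehalose, was detected in iHep type 2 (-4.78) and in hepatocytes (-1.22). Mep1b, a subunit of the protease meprin, was detected in hepatocytes alone (-3.49), by 1 of its 2 probes. Mep1a, the other meprin subunit, was detected everywhere within a narrow range, from -3.90 to -3.46 in iHep, -3.05 in hepatocytes and from -3.88 to -3.72 in MEF. It was the 1 enzyme not called in any comparison.

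None of the 5 carriers was called between iHep and MEF with limma, and none of the 3 tested had an unadjusted p under 0.05. Slc15a1, the peptide carrier, and Slc6a19, the carrier of neutral amino acids, were not above background on any of the 7 arrays and were not tested. Slc5a1, the sodium-glucose carrier, was detected in hepatocytes alone, at -3.73 by its brighter probe and -4.40 by the other. Slc2a5, the fructose carrier, had levels of -6.93, -5.08 and -4.28 in iHep types 1, 2 and 3, of which the last 2 were above background, 1.85 in hepatocytes, and -6.23, -5.76 and -5.36 in MEF, of which the last 2 were above background. It was at least 187-fold higher in hepatocytes than in MEF (7.75 ± 1.11 as fitted, adjusted p = 0.00418). Slc26a6, an anion exchanger, was detected on all arrays and called in no comparison, with levels from -2.46 to -1.61 in iHep, -1.53 in hepatocytes and from -1.54 to -1.04 in MEF. The sugar carriers were thus above background in hepatocytes, and those for peptides and neutral amino acids on no array.

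Of the 10 surface proteins, 5 were called higher in iHep than in MEF (10% of all genes tested) and none lower (13.2%). Lgals4, or galectin 4, a lectin of the apical membrane of enterocytes, had levels of 6.75, 6.35 and 7.69 in iHep types 1, 2 and 3, 2.45 in hepatocytes, and -2.41, -2.49 and -2.40 in MEF. It was 658-fold higher in iHep than in MEF (9.36 ± 0.43, adjusted p = 0.000625) and 22.4-fold higher than in hepatocytes (4.49 ± 0.54, adjusted p = 0.00294). Its second probe gave 9.64 against MEF. Tspan8, a tetraspanin, had levels of 4.35, 4.49 and 4.96 in iHep, -4.15 in hepatocytes, and -6.68, -5.50 and -5.71 in MEF, where MEF 1 was below background. The rise in iHep was at least 1274-fold against MEF (10.75 ± 0.40 as fitted, adjusted p = 0.000494) and 431-fold against hepatocytes (8.75 ± 0.50, adjusted p = 0.000387). In this gene the iHep types lay close together and far above all other arrays. Its probe lies on chromosome 10 between 115231983 and 115237343 of mm8.

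Muc13, a membrane mucin, had levels of 1.37, 2.27 and 3.80 in iHep types 1, 2 and 3, -2.01 in hepatocytes, and -7.89, -8.93 and -8.79 in MEF, where it was not above background. The rise was at least 442-fold in iHep against MEF (10.86 ± 0.78 as fitted, adjusted p = 0.00175) and at least 19.6-fold in hepatocytes against MEF (adjusted p = 0.00644). Cdh17, a cadherin of the gut epithelium, had levels of -2.79, -1.62 and -1.82 in iHep, -4.52 in hepatocytes, and -4.37, -4.99 and -4.64 in MEF. Hepatocytes and MEF overlapped, and iHep was 5.72-fold above MEF (2.52 ± 0.42, adjusted p = 0.0155) with a change of 2.29 within slide 1 that was not called. Gpa33, an antigen of intestinal cell junctions, had levels of -5.09, -2.95 and -2.43 in iHep types 1, 2 and 3, -5.57 in hepatocytes, and -7.52, -7.59 and -7.83 in MEF, none above background. It was at least 7.05-fold higher in iHep than in MEF (4.12 ± 0.83 as fitted, adjusted p = 0.0262). That call was also lost within slide 1, with normexp, with the mean of both probes and without iHep type 2.

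The other 5 surface proteins were not called between iHep and MEF. The tetraspan proteins Tm4sf4, Tm4sf5 and Tm4sf20 were highest in hepatocytes. Tm4sf4 stood at -4.48, -4.69 and -4.51 in iHep, 4.47 in hepatocytes, and -4.12, -3.86 and -4.10 in MEF. It was 368-fold higher in hepatocytes than in MEF (8.52 ± 0.24, adjusted p = 0.000172) and 524-fold lower in iHep than in hepatocytes (-9.03 ± 0.23, adjusted p = 0.000136). Tm4sf5 was detected in hepatocytes alone, and Tm4sf20 in hepatocytes and iHep type 2. Muc3, a membrane mucin of microvilli, was detected in iHep types 2 and 3 (-5.17 and -5.96) and in hepatocytes (-2.45), by 1 of its 2 probes. Lypd8, a protein that keeps bacteria off the colon surface, stood at 2.34 in iHep type 2, -1.10 in iHep type 3 and -2.16 in hepatocytes, and was not above background in iHep type 1 or in MEF. Its spread between types was too wide for a call (6.77 ± 2.5 as fitted, adjusted p = 0.117).

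Among the secreted peptides and the receptor, Ffar4 alone was called in iHep. Ffar4, or Gpr120, is a receptor for long-chain fatty acids. Its level was 3.83, 4.13 and 4.15 in iHep, -7.72 in hepatocytes, where it was not above background, and -6.15, -6.34 and -6.31 in MEF, of which the last 2 were above background. It was at least 1105-fold higher in iHep than in MEF (10.27 ± 0.20 as fitted, adjusted p = 0.00026) and at least 909-fold higher than in hepatocytes (adjusted p = 0.000136). The 3 iHep types lay within a narrow range, far above every other array. The hepatocyte level was called lower than MEF (-1.48 ± 0.27, adjusted p = 0.00885), but neither level is far from background, no fold can be given, and with normexp the difference was 0.23. The Ffar4 probe lies on chromosome 19 at 38179024 to 38179083 of mm8.

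Guca2a and Guca2b encode guanylin and uroguanylin, which regulate fluid secretion. Guca2a was detected on all 7 arrays and called in no comparison, at -5.21, -4.55 and -3.82 in iHep, -3.86 in hepatocytes, and -5.28, -5.01 and -4.93 in MEF. Guca2b was detected in hepatocytes alone (-2.80) and was at least 11.4-fold higher there than in MEF (adjusted p = 0.00124). Prap1, an acidic protein secreted by intestinal epithelium, had levels of -5.73, -1.93 and -3.43 in iHep types 1, 2 and 3, 1.69 in hepatocytes, and -6.11, -5.82 and -5.93 in MEF, where MEF 1 was not above background. The hepatocyte level was at least 186-fold above MEF (7.68 ± 1.5 as fitted, adjusted p = 0.0111), and iHep was not called against MEF (2.30 ± 1.12, adjusted p = 0.201).

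Of the 4 goblet cell products, Zg16 was called higher in iHep and the others were not called. Zg16 encodes a lectin-like protein of goblet cell granules. Its level was 6.53, 3.29 and 5.22 in iHep types 1, 2 and 3, 0.79 in hepatocytes, and -6.71, -6.85 and -6.91 in MEF, with no MEF array above background. The rise was at least 2533.5-fold in iHep against MEF (11.81 ± 0.95 as fitted, adjusted p = 0.00242) and at least 135-fold in hepatocytes against MEF (adjusted p = 0.00707). Muc2, the main gel-forming mucin of the gut, was not above background on any iHep or MEF array by any of its 4 probes, and in hepatocytes 1 of the 4 detected it, at -3.89. Fcgbp, a mucus protein, had overlapping levels of -4.67, -2.94 and -1.85 in iHep and -4.53, -3.50 and -3.65 in MEF by the brighter of 2 probes, and -2.16 in hepatocytes. The other Fcgbp probe disagreed: it was detected in iHep types 2 and 3 (-2.08 and -1.43) and hepatocytes (-1.30), and not in iHep type 1 or MEF. Spink4, a protease inhibitor of goblet cells, stood at -2.66, -4.88 and -0.04 in iHep types 1, 2 and 3, -4.91 in hepatocytes, and -6.33, -6.22 and -6.46 in MEF, where 1 of 3 arrays was above background (3.81 ± 1.41, adjusted p = 0.116).

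No crypt gene was called between iHep and MEF with limma in the fit reported, and none of the 3 had an unadjusted p under 0.05. Lgr5, the receptor that marks crypt stem cells, stood at -0.68 and 0.86 in iHep types 1 and 2, -1.33 in hepatocytes, and 0.72, -0.86 and -0.75 in MEF, and was not above background in iHep type 3 (-8.37). The MEF levels overlapped those of iHep types 1 and 2. The Lgr5 change was -2.68 over the 3 types, also with each type as its own group, and 0.14 without iHep type 3. With each type as its own group the spread between types is left out, so a call from that fit is not given here. A second Lgr5 probe, elsewhere on chromosome 10, was not above background on any array. Olfm4, a secreted protein of crypt cells, had levels of -2.52, -4.71 and -4.52 in iHep types 1, 2 and 3, was not detected in hepatocytes, and was detected in MEF 1 (-5.30) but not in MEF 2 or MEF 3. Its iHep and MEF arrays did not overlap (3.16 ± 1.25, adjusted p = 0.135), and its second probe was detected on the 3 iHep arrays and no other. Olfm4 was called higher in iHep with the mean of its probes (3.79, limma adjusted p = 0.049), with 3 separate MEF samples (3.75, adjusted p = 0.0469) and with the replicate block (adjusted p = 0.00734). The last 2 settings count MEF 2 and MEF 3 as separate samples, although they differed by less than repeated spots of a probe do. Neither was above background for Olfm4, and the block rests on array numbers that do not pair the arrays. Ascl2, a factor of crypt stem cells, had levels of -4.52, -5.63 and -4.51 in iHep, -2.60 in hepatocytes, and -4.74, -4.76 and -3.43 in MEF. It was 4.89-fold lower in iHep than in hepatocytes (-2.29 ± 0.57, adjusted p = 0.0253).

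**Figure D2:**
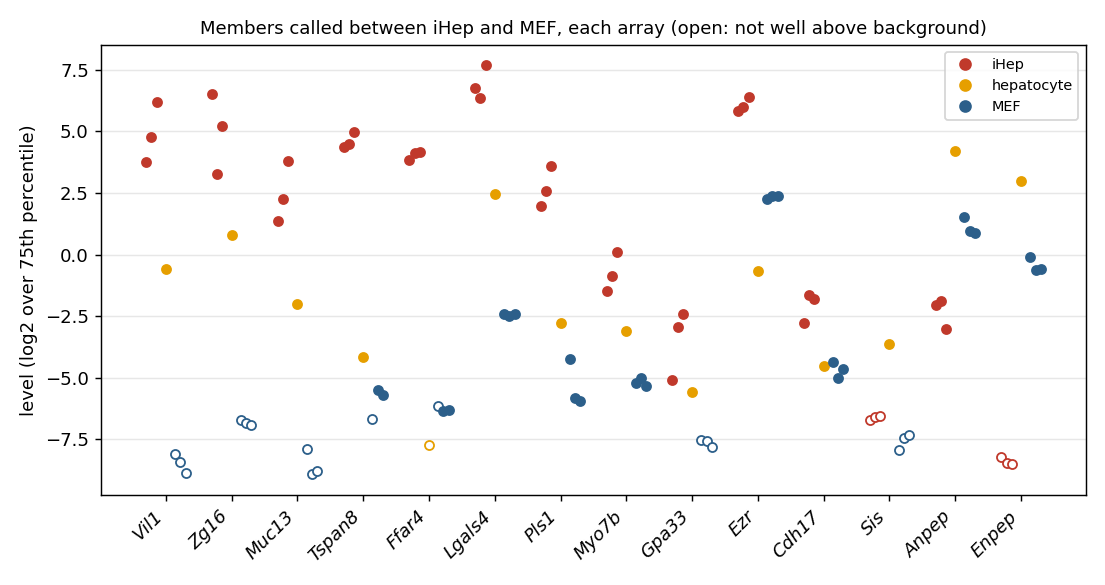
Each point is 1 array's level (log2 signal over the 75th percentile) of a member called between iHep and MEF, with the iHep arrays left, hepatocyte in the middle and MEF right for each gene, and open circles for spots that did not stand well above background. For Vil1 the iHep arrays lie from 3.75 to 6.19 and the MEF arrays from -8.86 to -8.12, and for Anpep the order is turned round.

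Hepatocytes against MEF gave 23 members higher and 4 lower, against 29.3% and 24.3% of all genes called higher and lower. The median change was 3.17 over the members and 0.20 over all genes. By role, 8 of 9 enzymes, 7 of 10 surface proteins, 2 of 3 carriers tested, 2 of 4 peptides and receptor and 2 of 4 goblet products were higher. Of 7 cytoskeletal members 2 were higher and 3 lower. Of the members tested, 13 passed the filter through hepatocytes alone and are high there by construction. They are the enzymes Dpp4, Sis, Alpi, Treh and Mep1b, the carriers Slc5a1 and Slc2a5, and Tm4sf5, Tm4sf20, Muc3, Lypd8, Guca2b and Muc2. The counts and the median include them, so they describe these genes and are no support for a difference. Both hepatocytes and iHep are set against the same MEF samples here, so these counts are not independent of the preceding ones. Vil1 was at least 52.4-fold higher in hepatocytes than in MEF (7.79 ± 1.0 as fitted, adjusted p = 0.00299), and Enpep 10.2-fold higher (3.36 ± 0.32, adjusted p = 0.00121). The 4 members lower in hepatocytes were Eps8, Espn, Ezr and Ffar4. Among those higher, Myo7b lay near the threshold (2.11 ± 0.67, limma adjusted p = 0.0469). Its call was lost with normexp, quantile normalization, the deposited value table and the mean of its probes. The same call was lost without the filter, without MEF 3 and without iHep type 2. Without MEF 1, 18 were called higher, and Myo7b, Prap1, Tm4sf20, Treh and Tspan8 were lost. Without the filter the counts were 22 higher (19.8% of all) and 4 lower (15.3%).

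Between iHep and hepatocytes, 12 members were higher in iHep and 18 lower, where 21.5% and 28.3% of all genes were called. The median was -0.83 over the members and -0.23 over all genes. All but Myo1a of the 7 cytoskeletal members were called higher in iHep, and all but Mep1a of the 9 enzymes were called lower. Of those enzymes Dpp4, Sis, Alpi, Treh and Mep1b were tested only because they cleared background in hepatocytes, so these counts describe the roles and do not set them against each other. Ezr was 106-fold higher in iHep than in hepatocytes (6.72 ± 0.31, adjusted p = 0.000238), Eps8 was 75.1-fold higher (6.23 ± 0.54, adjusted p = 0.0011) and Vil1 was 45.1-fold higher (5.49 ± 0.94, adjusted p = 0.00812). On the other side, Anpep was 93.2-fold lower in iHep (-6.54 ± 0.54, adjusted p = 0.000961), Dpp4 at least 763-fold lower (adjusted p = 0.00162) and Slc2a5 at least 125-fold lower (adjusted p = 0.00483). Surface proteins were split, with 4 higher in iHep (Lgals4, Cdh17, Tspan8, Muc13) and 4 lower (Tm4sf4, Tm4sf5, Tm4sf20, Muc3). Tm4sf5, Tm4sf20 and Muc3 too were tested only because they cleared background in hepatocytes, as were Guca2b, Muc2, Slc2a5 and Slc5a1. Members that passed in this way are high in hepatocytes by construction, so their calls are no support for a difference. Without the filter, 12 were higher (12.7% of all) and 17 lower (18.8%). Without MEF 1, which leaves 1 MEF sample, the calls of Myo7b, Zg16, Muc3, Prap1, Tm4sf20 and Treh were lost. Olfm4 was gained there as higher in iHep than in hepatocytes. Quantile normalization moved the median of all genes by 0.25 in this comparison and by -0.20 in hepatocytes against MEF, and turned the direction of no called member.

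**Figure D3:**
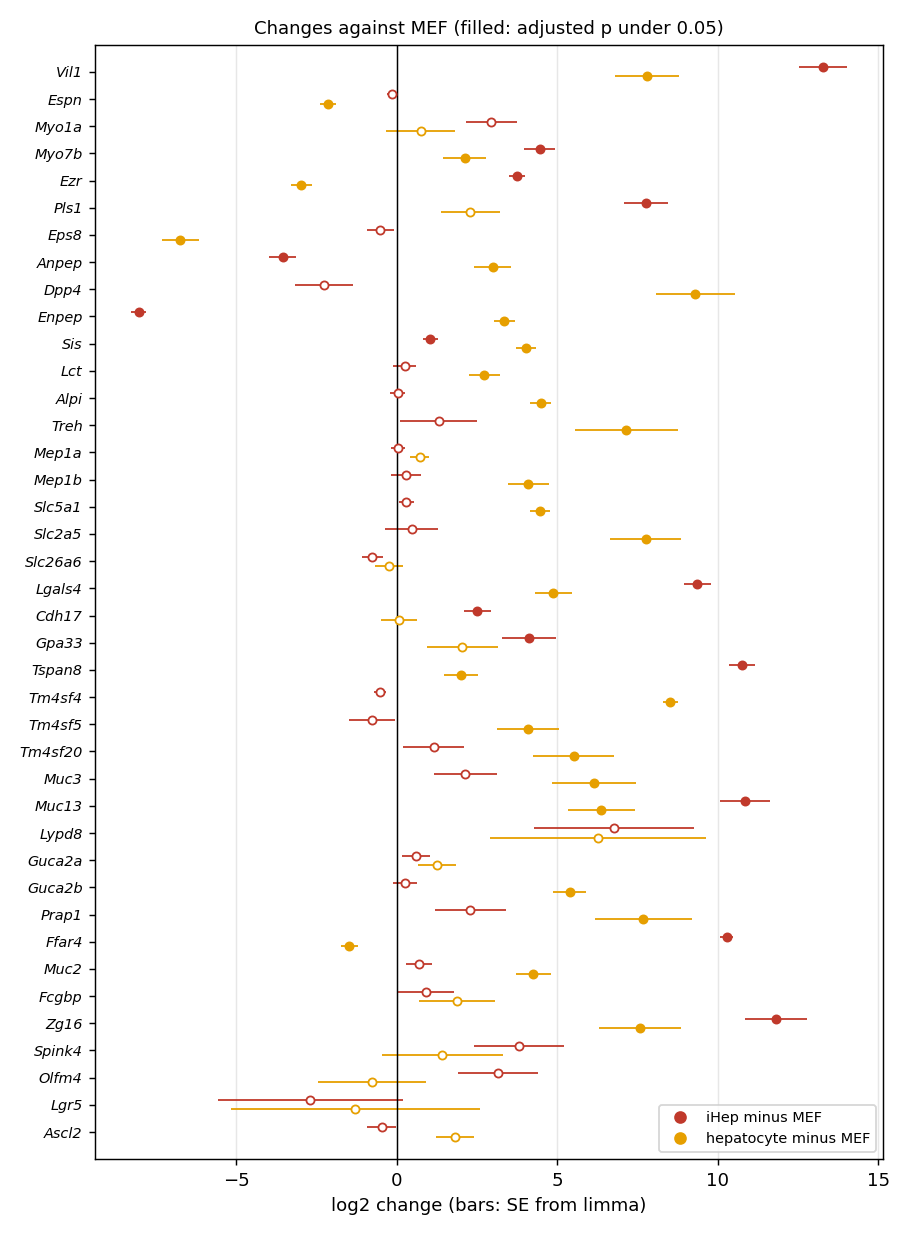
The log2 change of each of the 40 members tested is plotted for iHep minus MEF and hepatocyte minus MEF, with bars for the standard error from limma and filled points for an adjusted p under 0.05. Fitted changes are drawn as they are, also where a group was below background. The 7 cytoskeletal genes, 4 of them called higher in iHep, lie from -0.50 to 13.28 in iHep and from -6.74 to 7.79 in hepatocytes. The enzymes lie from -8.03 to 1.32 in iHep and from 0.72 to 9.30 in hepatocytes.

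The 3 iHep types were not alike in these genes, although 1 array per type allows no test among them. Of 32 members above background on at least 1 iHep array, 15 had an SD over 1 between types (46.9%), against 12.5% of all genes so detected. Treh and Tm4sf20 cleared background in 1 type, and Slc2a5, Muc3, Lypd8 and Lgr5 in 2 types, so their SDs include levels below background. These 15 were picked by that spread after their values were seen. Type 2 had the highest level for 7 of them (Myo1a, Treh, Tm4sf20, Muc3, Lypd8, Prap1 and Lgr5), type 3 for 6 (Vil1, Slc2a5, Gpa33, Muc13, Fcgbp and Spink4) and type 1 for 2 (Zg16 and Olfm4). Over all 2271 such genes and unnamed probes, type 1 was highest for 601, type 2 for 979 and type 3 for 691. Against MEF 1 of the same slide, 12 of the 27 members above background on at least 1 of the 2 arrays were over 4-fold higher in type 1 (8.64% of all), 17 of 33 in type 2 (9.73%) and 17 of 31 in type 3 (9.3%). Over 4-fold lower were 2 members in type 1 (9.74%), 2 in type 2 (9.24%) and 3 in type 3 (11.1%). Lypd8 and Lgr5 were spread most, with SDs of 4.29 and 4.95, and each was below background in 1 type. Leaving out type 1 added Lypd8, Muc3, Myo1a and Prap1 to the members called higher than MEF.

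**Figure D4:**
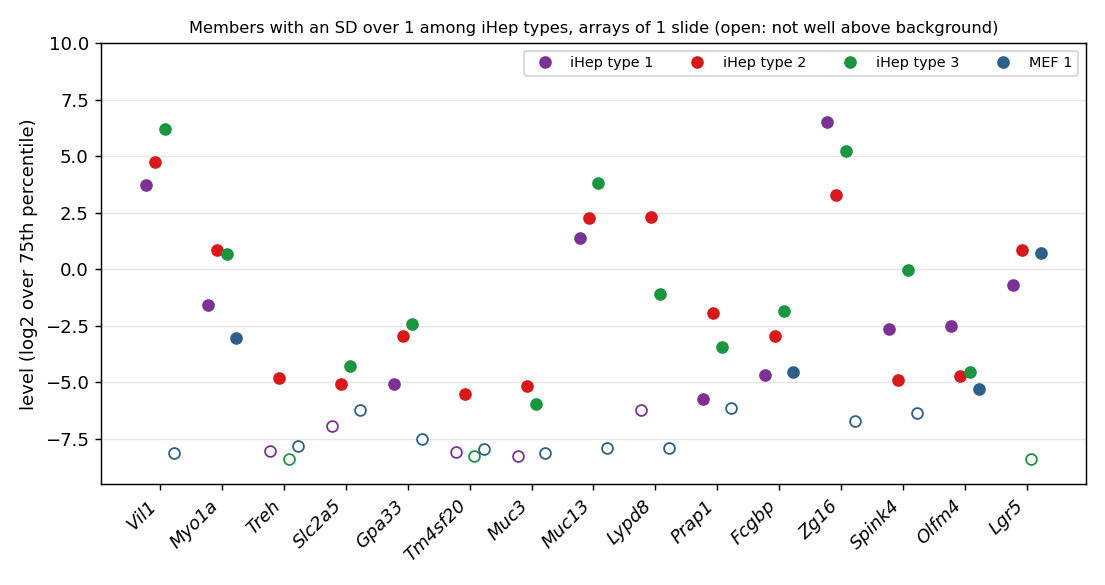
Levels (log2 signal over the 75th percentile) of the 15 members with an SD over 1 between iHep types are drawn for the 3 iHep arrays and MEF 1, which shared a slide, with open circles for spots that did not stand well above background. Zg16 is highest in type 1 (6.53), Lypd8 in type 2 (2.34) and Spink4 in type 3 (-0.04), and Lgr5 is open in type 3 alone.

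Further lists of intestinal genes, none of them members, were read in the same way. Over all genes tested, 10% were called higher in iHep than in MEF and 13.2% lower. In hepatocytes 29.3% were called higher than in MEF and 24.3% lower. Among 19 microvillus partners, 12 were higher in hepatocytes than in MEF and 4 lower, with a median change of 4.57. In iHep 12 were higher than in MEF and 1 lower, with a median change of 2.70. They included Eps8l3, which binds actin regulators (11.01 ± 0.59, at least 936-fold, adjusted p = 0.000896), Cdhr5, an adhesion protein between microvillus tips (9.05 ± 0.53, at least 204-fold, adjusted p = 0.00106), and Tmigd1 and Plekhg6 (8.17 ± 0.24 and 6.59 ± 0.58 as fitted, with no MEF array and 2 of 3 MEF arrays above background). Of 26 genes of enterocyte absorption tested, 5 were higher in iHep and none lower, with a median of 0.75. In hepatocytes 17 of them were higher than in MEF and 2 lower, with a median of 3.84. Rbp2, which carries retinol in enterocytes, was at least 91.8-fold higher in iHep than in MEF, where MEF 1 was not above background (7.39 ± 0.33 as fitted, adjusted p = 0.000585), Apob at least 169-fold, Krt20 30.6-fold and Fabp2 5.73-fold. Fabp2, the intestinal fatty acid binding protein, stood at -2.60, -1.71 and -2.99 in iHep and 4.91 in hepatocytes.

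The goblet program had 8 of 12 tested genes higher in iHep and 2 lower, with a median of 4.74. The 2 lower were Creb3l1 (-1.83) and Creb3l4 (-1.58). In hepatocytes 4 of the 12 were higher than in MEF and 4 lower. Tff3, a trefoil peptide of goblet cells, had levels of 7.70, 6.76 and 8.92 in iHep, -0.45 in hepatocytes and none above background in MEF (at least 17541-fold, adjusted p = 0.000585), and Clca1, a goblet cell product, rose at least 5425-fold. Bcas1 and Gfi1 rose at least 350-fold and at least 20.1-fold. Atoh1, the factor that sets up secretory cells, and St6galnac1 were not detected in iHep or in the other groups. Among 19 crypt and stem genes tested, 4 were higher and 4 lower, with a median of -0.39. Only the 4 called genes with the largest changes are named, and these are the 4 that fell. The log2 change was -8.46 for Slc14a1 (not above background in iHep type 3), -5.52 for Smoc2, -4.76 for Ephb2 and -2.70 for Ephb3. Of 4 Paneth cell genes tested only Lyz1 was called, lower in iHep, and of 6 tuft cell genes only Alox5ap, also lower. Over all genes tested 13.2% were called lower, so 1 call in lists this short is no trait of them. Of 11 enteroendocrine genes Sct, which encodes secretin, was higher (15.4-fold, adjusted p = 0.00101) and Cck, Tph1 and Chgb were lower.

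Lists of other epithelia were read as well. Over all genes tested, 10% were called higher in iHep than in MEF and 13.2% lower, and the 1 kidney gene called, of 7, lies near that share. Of 9 stomach genes tested, 4 were higher in iHep than in MEF and none lower, and the summed linear level of the 11 on the array was 99.0 to 394 in iHep, 1.43 in hepatocytes and 0.362 to 0.383 in MEF, where Gkn1, Gkn2 and Pgc were not detected. Of 9 bile duct genes 5 were higher and 1 lower, with a summed level of 175 to 209 in iHep, 8.60 in hepatocytes and 233 to 294 in MEF. Spp1, the gene that fell, made up most of the MEF sum, and the other 9 genes summed to 151 to 174 in iHep, 5.09 in hepatocytes and 3.11 to 3.33 in MEF. Epcam and Elf3 of that list were not detected in MEF. Of 7 kidney proximal tubule genes none was higher and 1 lower, with a summed level of 0.406 to 1.31 in iHep, 16.3 in hepatocytes and 2.04 to 10.1 in MEF, and Slc34a1, Kap, Pax8 and Slc5a12 were not detected in any group. Of 10 macrophage genes 8 were lower in iHep than in MEF, with a summed level of 0.372 to 1.69 in iHep, 12.2 in hepatocytes and 65.5 to 103 in MEF. Several members are known from stomach, bile duct or kidney cells too, and the part of such cells in the results was not tested.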

How the data were processed

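Cy3-labelled RNA of each sample was put on 1 Agilent array, per the labels' protocols. The scanner files were made by the authors with Agilent Feature Extraction 9.5.1.1, per the submitters' processing notes, and hold 1 background-subtracted intensity per spot that is not scaled between arrays. Mean and background intensities of the same deposited files served the normexp alternative, and the deposited flag columns (unit other, 0 or 1) tell which spots cleared background, were saturated or were outliers. The authors' deposited value table, an intensity per probe on a linear scale whose preparation no source used here gives, correlated with the scanner signals at r = 0.9988 to 0.9999 across probes, had a median of 66.4 in each column and served as an alternative.

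After removal of control spots and of 66 to 104 outlier spots an array, repeated spots were averaged, which left 41138 of 41174 probes. Levels are log2 of the signal minus the array's 75th percentile. The table of GRCm38.p6 genes named 24358 probes by accession and 8714 by symbol or synonym, 7805 kept the file's name, and 261 had none. The brightest probe stood for a gene. Genes well above background on every array of a group were tested with limma 3.58.1 in R 4.3.3 (lmFit, eBayes, 3 groups in 1 fit, Benjamini-Hochberg over 19133 genes), which was tested on simulated data. MEF 2 and MEF 3 differed by 0.863, 0.875, 0.659 and 0.521 of what repeated spots predict in rising classes of signal, and MEF 1 and MEF 2 by 3.65 to 4.17 times that. A bound ("at least") sets the brighter group against the lowest level well above background on each array of the dimmer group, or the probe's own level if higher, wherever any of those arrays did not clear background and the fold is printed. Same-numbered iHep and MEF arrays deviated from their group means with correlations of 0.03, -0.02 and -0.000529, so the numbers do not pair them. Every array's value is given for members called between iHep and MEF and for members detected in both MEF and hepatocytes whose call differs between comparisons, the others by range and detection. From each other intestinal list the 4 called genes with the largest change are named, and from lists of other cell types only counts, summed levels and undetected markers. Members and lists were chosen with earlier results of these data known.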

Additional observations from a re-analysis of the deposited data

How the results depend on the processing

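Counts of members called moved by over 1.5 times in 2 settings. In the fit reported, 10% of all genes tested were called higher in iHep than in MEF and 13.2% lower. The shares of all genes called in the settings below are not given. A moved count can therefore not be told from a change in calls over all genes, and is no trait of the members. With 3 separate MEF samples 4 members were lower in iHep than in MEF (Dpp4 and Tm4sf4 added), and with normexp 2 were lower in hepatocytes than in MEF (Espn and Ffar4 lost). With 1 array left out at a time, 9 to 15 members were higher in iHep than in MEF, 18 to 25 were higher in hepatocytes than in MEF, 11 to 14 were higher in iHep than in hepatocytes and 14 to 18 lower. With a replicate block and 3 separate MEF samples 14 members were higher in iHep than in MEF and 2 lower, with Myo1a and Olfm4 added. With those samples and no block 16 were higher. Both settings count MEF 2 and MEF 3 apart, although they differed by less than repeated spots of a probe on 1 array. With each type as its own group the spread came from MEF alone, so no count is given for that fit. Counting only calls whose brighter group was above background on all its arrays, an alternative chosen after seeing the data, left 11 higher.

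Of 1640 single changes recomputed, 1521 kept direction and side of the threshold, 49 lost a call, 44 gained one and 26 turned sign, of which none was called in the new direction. With normexp, iHep minus MEF turned to -0.00546 for Lct, -0.0554 for Alpi, -0.061 for Mep1a and -0.177 for Guca2b, and hepatocyte minus MEF to 0.226 for Ffar4 and 0.0738 for Olfm4. With the slide as a block Lct turned to -0.0764 and Mep1a to -0.0106. Alpi turned to -0.0218 with 3 separate MEF samples, with and without the replicate block. For hepatocyte minus MEF, Cdh17 turned to -0.122 with quantile normalization and -0.121 with the deposited table, and Olfm4 to 0.121 with the mean of its probes. With 1 array left out, iHep minus MEF ran from -0.132 to 0.166 for Alpi, from -0.0988 to 0.124 for Mep1a, from -0.139 to 0.73 for Mep1b, from -0.111 to 1.22 for Slc2a5, from -1.07 to 0.373 for Tm4sf5, from -0.0207 to 0.532 for Guca2b and from -4.48 to 0.135 for Lgr5. Likewise hepatocyte minus MEF ran from -0.00951 to 0.302 for Cdh17 and from -0.82 to 1.02 for Olfm4, and iHep minus hepatocyte from -1.49 to 2.77 for Lypd8 and from -3.19 to 1.42 for Lgr5. Of all these only Ffar4 was a call as reported, and the cause was not tested. Signal over background limits the dim members: 13 were tested through hepatocytes alone, and Slc15a1 and Slc6a19 not at all.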
